A study of Homo sapiens with 8 samples.

Results

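In Raji-4RH cells, 95 genes were without a single read in both DMSO libraries and had reads in both chidamide libraries, and these switched-on genes are described here. A gene was taken when its FPKM (the read count scaled by gene length and library total) was 0 in both Raji-4RH DMSO libraries and when at least 5 reads were recovered in each of the 2 Raji-4RH chidamide libraries. The rule was applied to the first 6228 rows of the table, where gene label and values share a row, and it took 95 of those 6228 genes (1.53%). Of 797 genes with 0 reads in both Raji-4RH DMSO libraries, the 95 were 11.9%, and the other 702 stayed under the minimum. The genes were selected on the DMSO and chidamide values of Raji-4RH, so these values are given as a description, without a test. The Raji libraries did not enter the rule.

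Raji is a rituximab-sensitive Burkitt lymphoma cell line, and Raji-4RH is a rituximab-resistant line that was derived from it by repeated exposure to rituximab, an antibody against CD20. RNA-seq was done on 8 libraries in 4 groups of 2: Raji-4RH with DMSO, Raji-4RH with chidamide, Raji with DMSO and Raji with chidamide, each treated for 24 h and with chidamide at 3 μM. Each line is 1 culture lineage, so a difference between the lines cannot be told apart from a difference between these lineages. Whether replicates came from separate cultures is not given in the sources used here, so p-values measure the spread between these libraries, which may be technical.

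Chidamide belongs to the benzamide class of histone deacetylase (HDAC) inhibitors. HDACs remove acetyl groups from histones, and in lymphocytes they work within corepressor complexes that hold genes of other lineages silent. Blocking them raises histone acetylation, and reactivation of silent genes is a known consequence of HDAC inhibition.

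The libraries held 13991697 to 21193441 reads, and the Raji-4RH chidamide libraries were the shallowest pair (32410773 reads in all, against 39948668 for Raji-4RH DMSO). A count of 0 over both DMSO libraries allows a level of up to 0.0751 reads per 1000000, by counting error only. All 9 measured markers of B cells were detected in every group. Their summed FPKM was 1303 to 1363 in Raji-4RH DMSO and 1486 to 1593 in Raji-4RH chidamide. Single markers moved either way there: CD79A from 357 and 385 to 166 and 189 FPKM, CD74 from 590 and 615 to 905 and 985. CR2 was at 0.0667 to 0.161 FPKM in the Raji-4RH libraries and at 31.4 to 127 in the Raji libraries. The summed FPKM of 8 myeloid markers was 0.653 to 0.714 in Raji-4RH DMSO and 5.88 to 5.98 in Raji-4RH chidamide, and that of 7 fibroblast and endothelial markers 0.256 to 0.270 and 2.75 to 2.94. For 9 T and NK cell markers it was 7.39 to 8.45 and 17.2 to 17.3, and for 4 erythroid and megakaryocyte markers 0.291 to 0.490 and 0.981 to 1.31. Of the myeloid markers, LYZ, the lysozyme gene, had 0.151 and 0.134, then 4.13 and 4.06 FPKM, and CTSG had 0 reads in all 4 Raji-4RH libraries. The sums include MPO and PDGFRB, which are switched-on genes themselves. The sums were also higher with chidamide in Raji. There the myeloid sum was 1.10 to 1.21 with DMSO and 2.55 to 2.66 with chidamide. The fibroblast and endothelial sum was 0.179 to 0.360 and 2.74 to 2.94. For T and NK cell markers it was 1.51 to 1.68 and 3.38 to 4.18, and for erythroid and megakaryocyte markers 0.0674 to 0.394 and 0.491 to 0.722. The part of other cells in these results was not tested, and in bulk RNA a few cells with much RNA cannot be told apart from many cells with little. RPS18, a ribosomal protein gene that every cell uses, was listed at 0 in all 8 libraries, so a 0 in this table can also be a gene that the counting missed.

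The promoters of the switched-on genes ranged from CG-poor to CG-rich, as shown here with the bases before the RefSeq transcription start on GRCh38.p14, 5′ to 3′, CG pairs in capitals. The genes shown have the lowest and the highest CG content among the 25 members with the highest FPKM, leaving out promoters whose 250 bases touch a GENCODE v29 exon. FFAR2 (chr19:35448007-35448256, plus strand) and GHRHR (chr7:30963703-30963952, plus strand) are CG-poor, and both stretches lie inside the annotated gene but in none of its exons. BLVRA (chr7:43758430-43758679, plus strand) and AKAP7 (chr6:131135217-131135466, plus strand) are CG-rich and lie upstream of the annotated gene.
FFAR2: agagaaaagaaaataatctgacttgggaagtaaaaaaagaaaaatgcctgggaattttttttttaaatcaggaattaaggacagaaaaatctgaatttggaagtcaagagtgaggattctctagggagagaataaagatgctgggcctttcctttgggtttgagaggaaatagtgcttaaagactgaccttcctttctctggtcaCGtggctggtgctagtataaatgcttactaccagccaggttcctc
GHRHR: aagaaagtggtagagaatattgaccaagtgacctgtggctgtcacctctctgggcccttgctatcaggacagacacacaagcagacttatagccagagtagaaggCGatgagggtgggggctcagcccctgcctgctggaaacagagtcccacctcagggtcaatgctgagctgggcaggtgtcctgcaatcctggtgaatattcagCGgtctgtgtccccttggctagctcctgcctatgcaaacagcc
BLVRA: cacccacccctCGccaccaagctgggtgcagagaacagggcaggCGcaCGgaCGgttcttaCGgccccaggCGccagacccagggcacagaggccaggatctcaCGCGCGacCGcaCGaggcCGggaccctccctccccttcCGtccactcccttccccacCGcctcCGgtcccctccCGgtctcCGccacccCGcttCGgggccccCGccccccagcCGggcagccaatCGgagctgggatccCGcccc
AKAP7: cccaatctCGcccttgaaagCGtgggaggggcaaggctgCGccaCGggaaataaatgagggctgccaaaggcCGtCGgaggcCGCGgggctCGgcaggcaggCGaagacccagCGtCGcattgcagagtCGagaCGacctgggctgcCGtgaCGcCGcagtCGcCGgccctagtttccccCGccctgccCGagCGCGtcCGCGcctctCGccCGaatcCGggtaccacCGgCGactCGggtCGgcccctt
FFAR2 showed 1 CG pair in these 250 bases and GHRHR 2, against 23 in BLVRA and 32 in AKAP7. All 4 genes were silent in Raji-4RH DMSO and had reads in both chidamide libraries.

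Over the 300 bases from 250 before to 50 after the start, a promoter was found for 72 of the 95 genes and for 517 of the other 702 silent genes. The median ratio of observed to expected CG pairs was 0.465 for the switched-on genes, 0.438 for the other silent genes and 0.806 for all genes of the rows used. At least 0.6 was reached by 34 of the 72 (47.2%), by 39.5% of the other silent genes, by 73.6% of all genes of the rows and by 49.0% of the 27305 promoters of the whole RefSeq table. The share of the switched-on genes was below that of the rows used and near that of the RefSeq table, as a description without a test. The mean FPKM in Raji-4RH chidamide had a median of 0.281 for the 38 CG-poor genes and 0.116 for the 34 CG-rich ones. The rule used these values, and its read minimum lets a long gene in at a lower FPKM. Gene length was not compared between these classes, so the medians do not tie level to promoter class.

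**Figure D1:**
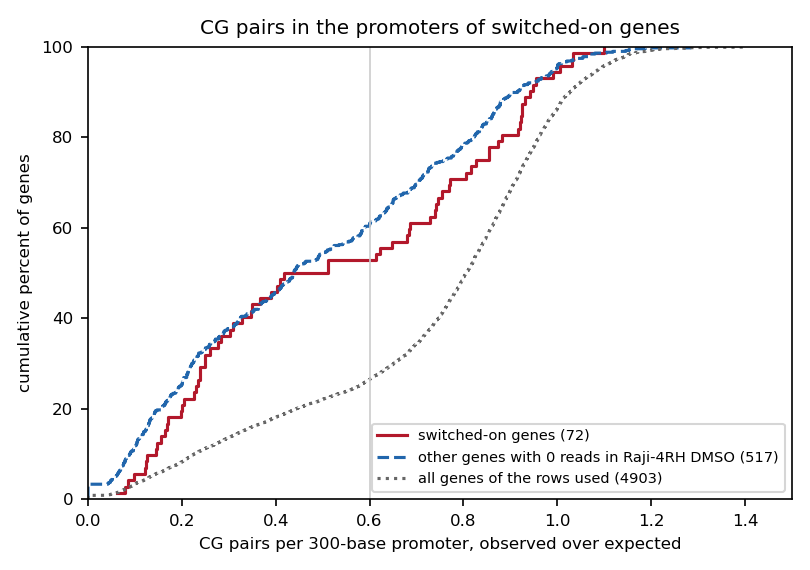
Cumulative percent of genes (vertical axis) against the observed over expected number of CG pairs in the 300-base promoter (horizontal axis), for 72 switched-on genes (red), 517 other genes with 0 reads in Raji-4RH DMSO (blue, dashed) and 4903 genes of all rows used (grey, dotted). The red and blue curves run close together at low ratios, and the grey curve lies to their right; the vertical line marks 0.6.

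Letters were searched on both strands of the same 300 bases. GGGCGG was present in 34 of the 72 promoters (47.2%), against 39.1% of other silent genes, 64.7% of the 4903 genes of the rows with a promoter and 44.6% of the RefSeq table. TATAAA was present in 12 (16.7%), against 16.2%, 7.51% and 11.95% in the same order. CCAAT was present in 28 (38.9%), against 38.9%, 36.8% and 35.7%. CACGTG was present in 5 (6.94%), against 6.96%, 9.24% and 7.43%, and TGACGTCA in 2 (2.78%), against 0.967%, 3.20% and 1.98%. None of these words contains another of them. A match is a run of letters, not a shown binding site.

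All 95 genes are protein coding in GENCODE v29, and they lie on 21 chromosomes. Their joined exons had a median length of 4690 bases, against 2970 for the other silent genes and 4901 for all genes of the rows. A long gene reaches 5 reads at a lower level than a short one. Exons of 36 of the genes overlap those of another gene, but in 4 of them at least 10% of the exon bases are shared and in none 50% or more. Whether counting was strand-aware is not given in the sources used here. Reads of a gene therefore cannot be told apart from those of an antisense partner, as in NGFR (27.1% of its exon bases). In SHB (49.9%) and SIRPB1 (13.4%) the partner lies on the same strand, where strand-aware counting would not separate the reads. The closest neighbours among them were on the X chromosome: CAPN6 (chrX:111245103-111270523) and DCX (chrX:111293779-111412429) were 23256 bases apart. BLVRA and HECW1 lay within 1 Mb of each other on chromosome 7, which held 11 of the 95 genes and 378 of the 6228.

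The switched-on genes had low levels. The mean FPKM of a gene over the Raji-4RH chidamide libraries ranged from 0.0300 to 2.20 with a median of 0.177. It was at least 1 FPKM for 6 genes, at least 0.5 for 12 and under 0.1 for 25. Against the limit of 3 reads over both DMSO libraries, the observed chidamide level was 4.11-fold to 68.2-fold higher, with a median of 10.7-fold. Counting error and replicate spread of the chidamide reads are not in these folds, and the rule set a minimum on those reads. The summed level of the 95 genes was 107 and 112 reads per 1000000 in the chidamide replicates. The level in replicate 2 over that in replicate 1 had a median of 1.06, and it lay between 0.5 and 2 for 83 genes. The rule asked for at least 5 reads in both replicates, so this ratio is no independent measure of their agreement. Over 4968 genes the replicate counts differed more in Raji-4RH chidamide than in any other group (chi-square per degree of freedom 11.1).

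**Figure D2:**
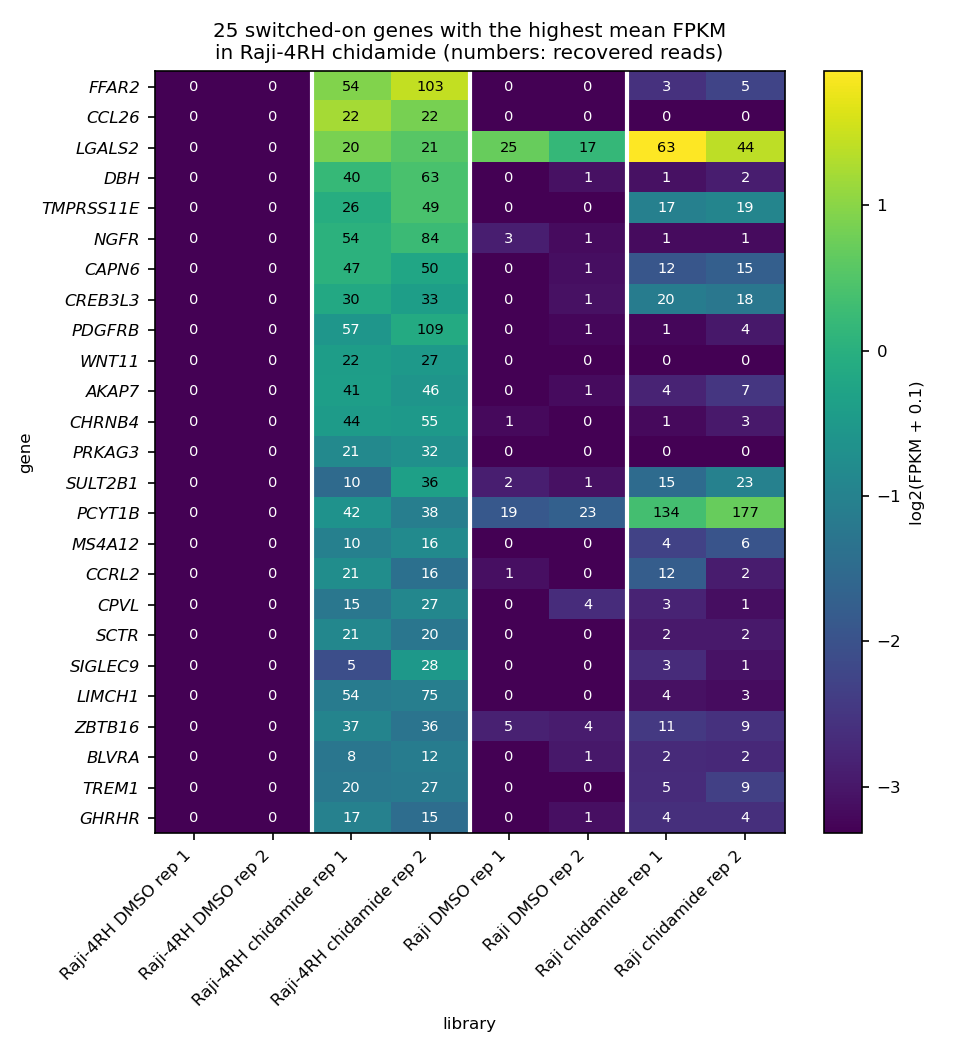
The 25 switched-on genes with the highest mean FPKM in Raji-4RH chidamide (rows, highest at the top) in each of the 8 libraries (columns), coloured by log2(FPKM + 0.1), with the recovered reads printed in each cell. All 25 have 0 reads in both Raji-4RH DMSO libraries by the rule; in Raji DMSO, LGALS2 and PCYT1B have 17 to 25 reads per library and the others 0 to 5.

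Among receptors at the cell surface, FFAR2 had the highest level of all. This G protein-coupled receptor for short-chain fatty acids was listed at 0 in both Raji-4RH DMSO libraries. With chidamide it was at 1.80 and 2.60 FPKM (54 and 103 reads), 64.5-fold above the limit of 3 DMSO reads. In Raji it had 0 reads in both DMSO libraries and 3 and 5 with chidamide. NGFR, the p75 neurotrophin receptor, had 0.930 and 1.10 FPKM (54 and 84 reads) in Raji-4RH chidamide. In Raji it had 3 and 1 reads with DMSO and 1 and 1 with chidamide, near the limit of detection in all 4 libraries.

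PDGFRB, the receptor tyrosine kinase for platelet-derived growth factor, had the most reads of the 95 genes. It was at 0 and 0, then 57 and 109 reads (0.571 and 0.829 FPKM), 68.2-fold above the limit of 3 DMSO reads. In Raji its reads were 0 and 1 with DMSO and 1 and 4 with chidamide. The peptide hormone receptors SCTR, for secretin, and GHRHR, for growth hormone-releasing hormone, had 21 and 20 reads and 17 and 15 reads in Raji-4RH chidamide. In Raji chidamide SCTR had 2 and 2 reads and GHRHR 4 and 4. CHRNB4, the beta-4 subunit of nicotinic acetylcholine receptors, had 44 and 55 reads with chidamide in Raji-4RH and 1 and 3 reads in Raji.

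Receptors that immune cells use were also among the 25 highest. SIGLEC9, an inhibitory receptor for sialic acids, had 5 and 28 reads in the Raji-4RH chidamide libraries, the widest replicate ratio among the 95 genes. TREM1, an activating receptor of myeloid cells, had 20 and 27 reads there and 0, 0, 5 and 9 in Raji DMSO and chidamide. CCRL2, an atypical receptor for the chemoattractant chemerin, had 21 and 16 reads, and in Raji 1 and 0 with DMSO and 12 and 2 with chidamide. MS4A12, a relative of the CD20 gene MS4A1, had 10 and 16 reads in Raji-4RH and 4 and 6 in Raji with chidamide.

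Secreted ligands followed. CCL26, a chemokine also called eotaxin-3, had 2.23 and 1.69 FPKM (22 and 22 reads) in Raji-4RH chidamide and 0 reads in the 6 other libraries. WNT11, a Wnt ligand, had 0.655 and 0.611 FPKM (22 and 27 reads) and likewise 0 reads elsewhere. These genes and PRKAG3, a regulatory subunit of the energy sensor AMPK with 21 and 32 reads, were the highest of 12 genes that had reads in no Raji library. The other 9 were GCG, LHX5, FSTL4, TDRD1, CISH, CNGB1, MYH13, PTPRZ1 and SORCS1, with 5 to 14 reads per Raji-4RH chidamide library.

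Enzymes, a calpain family member and a transcription factor were also among the 25. DBH, which converts dopamine into noradrenaline, had 1.03 and 1.24 FPKM (40 and 63 reads) in Raji-4RH chidamide. In Raji it had 0 and 1 reads with DMSO and 1 and 2 with chidamide. TMPRSS11E, a membrane-bound serine protease, had 0.869 and 1.24 FPKM (26 and 49 reads), and here Raji had reads too: 0 and 0 with DMSO, then 17 and 19. CAPN6, of the calpain family, had 47 and 50 reads in Raji-4RH and 12 and 15 in Raji with chidamide. CREB3L3, a membrane-bound transcription factor of liver and intestine, had 30 and 33 reads in Raji-4RH and 20 and 18 in Raji. SULT2B1, a sulfotransferase for sterols, had 10 and 36 reads in Raji-4RH (0.253 and 0.693 FPKM). In Raji its reads were 2 and 1 with DMSO and 15 and 23 with chidamide.

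Of the 25, AKAP7, a protein kinase A anchor, had 41 and 46 reads in Raji-4RH chidamide and 4 and 7 in Raji chidamide. LIMCH1, a regulator of the actin cytoskeleton, had 54 and 75 reads there and 4 and 3 in Raji. CPVL, a carboxypeptidase, had 15 and 27 reads, and BLVRA, biliverdin reductase A, 8 and 12. ZBTB16, the transcription factor PLZF, had 37 and 36 reads in Raji-4RH chidamide and 5, 4, 11 and 9 in the Raji libraries. LGALS2, or galectin-2, a sugar-binding lectin, and PCYT1B, an enzyme of phosphatidylcholine synthesis, had the most reads of the 25 in DMSO-treated Raji, 25 and 17 and 19 and 23.

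Below the 25 highest, the genes were as mixed in kind. Among regulators of metabolism, PPARGC1A, a coactivator of mitochondrial genes, had 11 and 30 reads in Raji-4RH chidamide, and MLXIPL, a carbohydrate-responsive transcription factor, had 5 and 17. Both had 0 to 4 reads per Raji library. CRY1, a repressor of the circadian clock, had 14 and 21 reads in Raji-4RH chidamide and 0 and 0, then 4 and 12 in Raji.

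Some of the genes known from blood cells were at low counts. DNTT, the terminal transferase of lymphocyte precursors, had 7 and 11 reads in Raji-4RH chidamide and 0 to 2 in each Raji library. MPO, the myeloperoxidase of granulocytes, had 5 and 12, and F13A1, a coagulation factor chain, 7 and 20. SIRPB1, a signal regulatory protein of myeloid cells, had more reads in Raji: 7 and 8 in Raji-4RH chidamide, and 3 and 0, then 16 and 18 in Raji. Signalling genes included CISH, a cytokine-induced inhibitor of cytokine signalling, with 10 and 8 reads and none in Raji, and DUSP4, a phosphatase of MAP kinases, with 8 and 19 reads in Raji-4RH and 0, 0, 1 and 0 in Raji. RAB27B, a GTPase of secretory vesicles, had 19 and 13 reads in Raji-4RH and 0, 0, 2 and 0 in Raji.

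At the other end of the list, 3 genes passed with the fewest reads. BFSP1, a lens filament protein, had 5 and 5 reads in Raji-4RH chidamide. TRPV4, a cation channel, had 5 and 6, and RERGL, a small GTPase-like protein, 5 and 7. Just outside the rule, CEACAM6 had 4 and 20 reads, PLCL1 4 and 15 and LHX2 4 and 11, each with 0 reads in both DMSO libraries. These values are close to those of the last members, so the edge of the list is set by single reads.

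The rule was run the other way to see whether genes were lost as often as gained. No gene of the 6228 had 0 reads in both Raji-4RH chidamide libraries and at least 5 in both DMSO libraries, against the 95. Genes with 0 reads in both libraries numbered 295 with chidamide and 797 with DMSO. With at least 3 reads the counts were 158 on and 0 off, with at least 2 reads 211 on and 3 off, and with at least 1 read 331 on and 11 off. At 10 reads 45 genes were on and 0 off, and at 50 reads 5 and 0. The Raji-4RH chidamide libraries are the shallower pair.

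In Raji the same rule took 34 of 6228 genes (0.546%), or 3.82% of the 891 genes with 0 reads in both Raji DMSO libraries. There 6 genes were lost, of 684 with 0 reads in both Raji chidamide libraries. The 34 and the 95 shared 9 genes, which is 9.47% of the 95 and 26.5% of the 34. Among them were LILRA1, TMPRSS11E, KCNJ2, SLC18A1, CLEC4M, ATP8B4, TREM1 and GDA. Of the 573 genes silent in the DMSO libraries of both lines, 50 were switched on in Raji-4RH and 17 in Raji.

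The 9 shared genes had 0 reads in the DMSO libraries of both lines. ATP8B4, a putative phospholipid flippase, had the most reads of them in Raji-4RH chidamide, 54 and 61, and had 30 and 25 in Raji chidamide. SLC18A1, a vesicular monoamine transporter, had 20 and 16 in Raji-4RH and 13 and 19 in Raji. CLEC4M, a C-type lectin, had more reads in Raji, 16 and 16 against 9 and 5, as had LILRA1 and KCNJ2. GDA, guanine deaminase, had 15 and 9 reads in Raji-4RH and 10 and 7 in Raji. The values of LILRA1, TMPRSS11E, KCNJ2 and TREM1 are given with the other results on these genes.

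**Figure D3:**
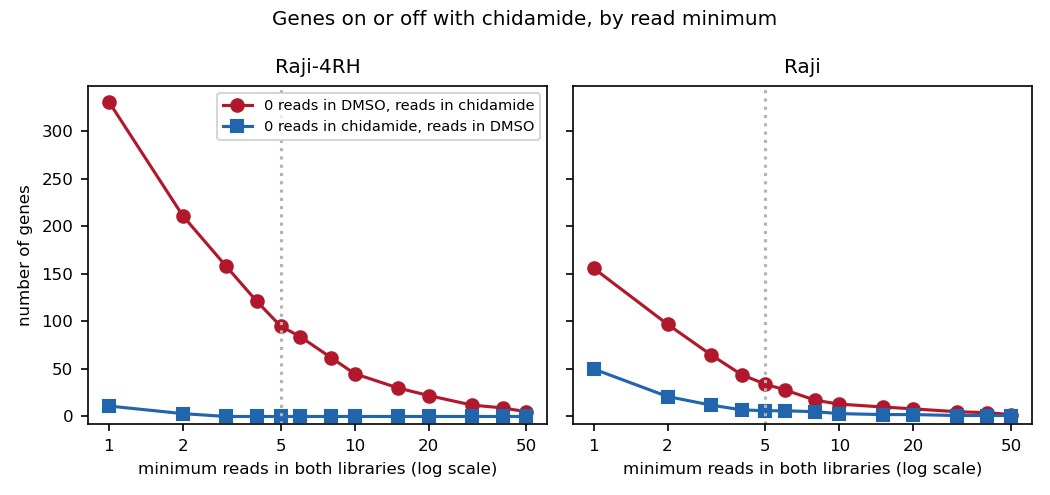
Number of genes of 6228 (vertical axis) that had 0 reads in both DMSO libraries and at least the given reads in both chidamide libraries (red circles), or the reverse (blue squares), against the minimum of reads on a log axis, for Raji-4RH (left) and Raji (right). The dotted line marks 5 reads, where the counts are 95 and 0 in Raji-4RH and 34 and 6 in Raji.

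What the 95 genes did in Raji was measured in libraries that the rule did not use. Of the 95, 50 had 0 reads in both Raji DMSO libraries and 45 had at least 1 read. With chidamide, 31 had at least 5 reads in both Raji libraries (32.6%), against 51 of the other 702 silent genes (7.26%) and 75.9% of all genes. With DMSO, 8 of the 95 already had at least 5 reads in both Raji libraries. Both chidamide libraries lay above both DMSO libraries for 50 of the 95 (52.6%), against 12.5% of the other silent genes and 38.5% of all genes. Many of the other silent genes had no reads in Raji at all (379 of 702, against 12 of 95), and such genes cannot separate. The summed level of the 95 genes in Raji was 19.6 and 20.7 reads per 1000000 with DMSO and 85.6 and 87.9 with chidamide. UST held much of it, and without UST the sums were 8.20 and 8.14 with DMSO and 49.2 and 50.4 with chidamide.

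**Figure D4:**
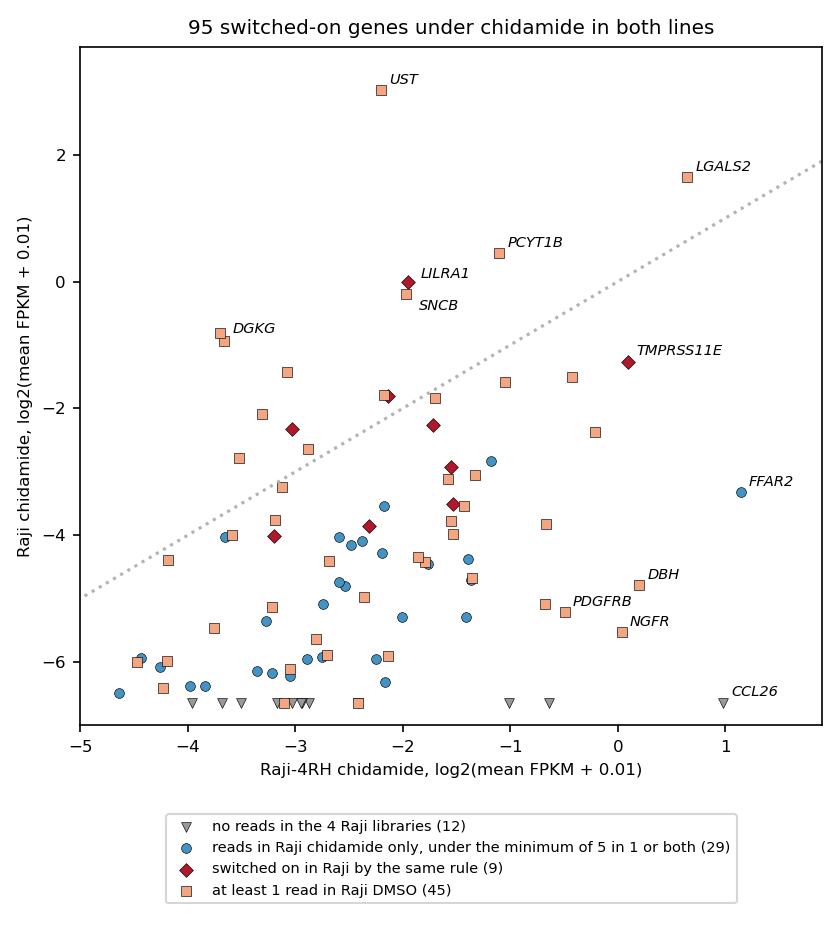
Mean FPKM of the 95 switched-on genes in Raji chidamide (vertical axis) against Raji-4RH chidamide (horizontal axis), both as log2(mean FPKM + 0.01), each point 1 gene and the dotted line equal levels. Genes without reads in Raji lie at the bottom, with CCL26 farthest right, and 14 genes, among them UST, LGALS2 and PCYT1B, lie above the line.

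Under chidamide the mean FPKM was higher in Raji-4RH than in Raji for 81 of the 95 genes (85.3%) and higher in Raji for 14, and it was higher in Raji-4RH for 59.4% of all genes. Since the rule asked for reads in Raji-4RH chidamide, the side of the 81 is partly set by it. Both Raji libraries lay below both Raji-4RH libraries for 75 of the 95 (49.6% of all genes did) and above them for 13 (30.8% of all genes). The widest gap was in UST, a sulfotransferase of dermatan and chondroitin sulfate: 7.98 and 8.22 FPKM in Raji chidamide and 0.141 and 0.274 in Raji-4RH chidamide.

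Differences with chidamide in Raji were tested with limma on log2(FPKM + 0.1) over the 4959 genes with at least 10 reads over the 4 Raji libraries. Of all these genes 35.7% were called higher and 29.1% lower (adjusted p under 0.05 by the Benjamini-Hochberg method). Of the 95 switched-on genes 37 could be tested, 29 rose (78.4%) and none fell, and of the other genes silent in Raji-4RH DMSO 59.2% rose and 11.3% fell. The median log2 difference was 1.07 for the 37 and 0.065 for all genes tested. At an unadjusted p under 0.05 none was lower either. With quantile normalization, which moved the median of all genes by -0.13 on the log2 scale, 1370 genes were called higher and 1775 lower, against 1771 and 1445, and 19 of the 37 rose and none fell. The other 58 genes had too few reads in Raji. Of the 37, 29 had under 10 reads with DMSO and entered the test through their chidamide reads, so a count over the 37 does not support a direction.

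The 8 genes with at least 10 reads over the Raji DMSO libraries did not depend on chidamide reads to be tested. They were UST, LGALS2, PCYT1B, FAM46A, MOB3B, SHB, PROM1 and HNF4A, and 7 of the 8 (87.5%) were called higher in Raji. The count was 4 with quantile normalization and 4 without Raji chidamide replicate 1, and UST, PCYT1B and MOB3B were called under every alternative. Of all genes with at least 10 reads over the Raji DMSO libraries 34.2% were called higher and 31.8% lower, and of the 30 other Raji-4RH-silent genes at that level 46.7% and 26.7%. These 8 genes are also the ones with at least 5 reads in both Raji DMSO libraries, so they had reads in DMSO-treated Raji and none in DMSO-treated Raji-4RH.

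UST was the clearest case. It had 225 and 253 reads in Raji DMSO, 750 and 781 in Raji chidamide, none in Raji-4RH DMSO and 9 and 23 in Raji-4RH chidamide. In Raji its log2 difference was 1.59 (SE 0.0764, limma adjusted p 1.57e-05), with no overlap between the groups. PCYT1B had 19 and 23 reads in Raji DMSO and 134 and 177 with chidamide, a log2 difference of 2.32 (SE 0.163, limma adjusted p 6.05e-05). Its Raji-4RH chidamide reads were 42 and 38, above the Raji DMSO level per length (0.540 and 0.371 against 0.173 and 0.206 FPKM).

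LGALS2 had 1.53 and 1.02 FPKM in Raji DMSO, 3.69 and 2.55 in Raji chidamide and 1.73 and 1.38 in Raji-4RH chidamide. Its log2 difference in Raji was 1.23 (SE 0.228, limma adjusted p 0.00352), and without Raji chidamide replicate 1 the adjusted p was 0.0848. FAM46A had 27 and 44 reads in Raji DMSO, 67 and 73 with chidamide, and 6 and 7 in Raji-4RH chidamide. MOB3B, of the MOB kinase-activator family, had 10 and 13, then 58 and 48 reads in Raji, and 7 and 19 in Raji-4RH chidamide. SHB, an adaptor protein, had 6 and 8, then 18 and 13 reads in Raji, and PROM1, the membrane protein CD133, 7 and 5, then 26 and 20, with its call lost with quantile normalization. The direction of SHB and FAM46A turned with quantile normalization. HNF4A, a transcription factor of the liver, was not called, with 15 and 9 reads when Raji received DMSO and 18 and 11 when it received chidamide (log2 difference 0.10, SE 0.210, limma adjusted p 0.691).

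**Figure D5:**
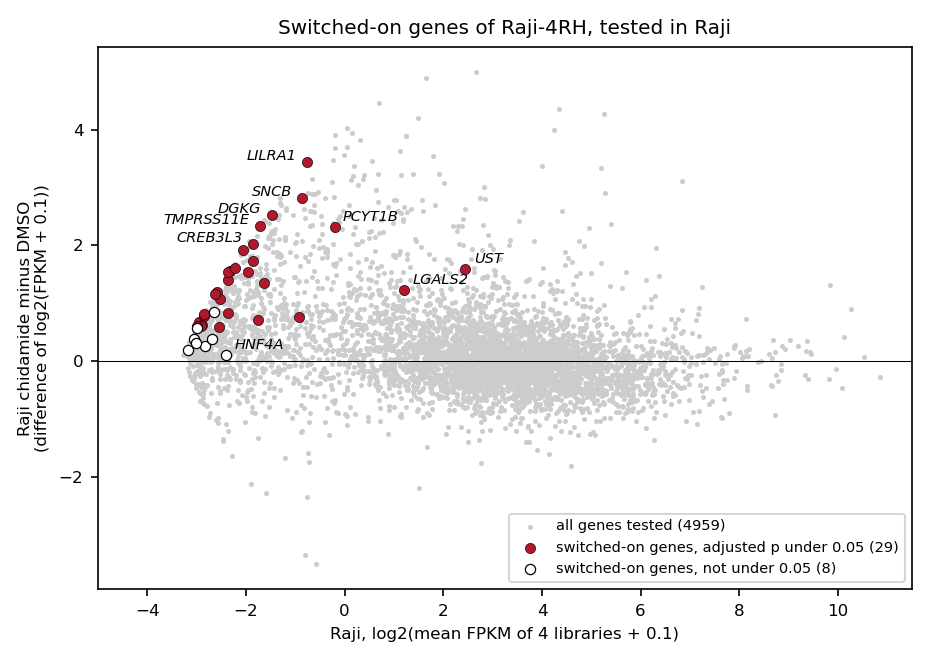
Difference between Raji chidamide and Raji DMSO in log2(FPKM + 0.1) (vertical axis) against the log2 mean FPKM over the 4 Raji libraries plus 0.1 (horizontal axis), for all 4959 genes tested (grey) and the 37 switched-on genes among them (filled where the limma adjusted p was under 0.05, 29 genes, and open where not, 8 genes). UST and LGALS2 lie among moderately expressed genes, and most of the others at the low end, where a gene without DMSO reads can lie above 0 and not below.

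Among genes with few or no DMSO reads in Raji, LILRA1 had the largest difference. This receptor of the leukocyte immunoglobulin-like family had 0 and 0 reads in Raji DMSO, 71 and 75 in Raji chidamide (0.961 and 1.00 FPKM), and 9 and 21 in Raji-4RH chidamide. Its log2 difference in Raji was 3.44 (SE 0.140, limma adjusted p 9.38e-06). DGKG, a diacylglycerol kinase, had 1 and 2, then 114 and 119 reads in Raji, but 9 and 16 in Raji-4RH chidamide (log2 difference in Raji 2.52, SE 0.149, limma adjusted p 3.21e-05). SNCB, beta-synuclein, had 2 and 1, then 39 and 33 reads in Raji and 10 and 5 in Raji-4RH. LILRA1, DGKG and SNCB each stood higher in Raji than in Raji-4RH under chidamide.

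The rest of the 10 largest rises in Raji were TMPRSS11E (log2 difference 2.34), CREB3L3 (2.02), KCNJ2 (1.91), SULT2B1 (1.73) and TRPV4 (1.61), beside PCYT1B and UST. KCNJ2, an inward rectifier potassium channel, had 0 and 0, then 31 and 33 reads in Raji, and 21 and 17 in Raji-4RH chidamide. TRPV4 had 0 and 1, then 18 and 17 in Raji. All of these, and LILRA1, DGKG and SNCB, kept their call under every alternative that could be run for them. Apart from PCYT1B and UST, they had under 10 reads over the Raji DMSO libraries and were tested through their chidamide reads. A fall could hardly be called for such genes, so their calls do not support a direction. The size depended on the setting: over the alternatives the log2 difference of LILRA1 ran from 0.99 to 7.14. Not called were EYA4, CCRL2, ZBTB16, RPH3A, MDGA1, PTPRN, GRAMD1B and HNF4A, with log2 differences from 0.10 to 0.85. CCRL2 was called without Raji chidamide replicate 2, where it had 2 reads against 12 in replicate 1 (limma adjusted p 0.0175).

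The switched-on genes were set against 11 gene lists of tissues and protein families. In all, 31 of the 95 were on a list and 64 on none. The share of silent genes that was switched on was 11.9% over all genes. On the neuronal and synaptic list it was 4 of 11 silent genes (36.4%), with a median of 0.229 FPKM in Raji-4RH chidamide. They were DBH, SNCB, SYT13, a synaptotagmin with 20 and 16 reads, and DCX, a microtubule protein of migrating neurons with 6 and 8. In Raji 31 of the 53 list genes were tested, 22 rose and 1 fell, with a median log2 difference of 0.79, and SNCB and SYT13 were among those that rose. Of all genes tested in Raji 35.7% rose and 29.1% fell. With quantile normalization 14 rose and 4 fell.

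On the ion channel list 4 of 24 silent genes were switched on (16.7%): CHRNB4, KCNJ2, CACNA1G, a T-type calcium channel with 19 and 51 reads, and TRPV4. On the list of secreted growth factors and cytokines it was 6 of 51 (11.8%): CCL26, WNT11, IGFBP5, SEMA5A, FGF13 and PDGFRB, the last a receptor that its symbol puts on the list. On the G protein-coupled receptor list 3 of 24 (12.5%) were switched on: FFAR2, SCTR and GHRHR. On the solute carrier and ABC transporter list 3 of 30 (10.0%) were switched on: SLC18A1, SLC52A3, for riboflavin, and SLC12A1, of the kidney.

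Developmental transcription factors were the largest group of silent genes, and 5 of 67 were switched on (7.46%): NR2E1, LHX5, EYA1, HNF4A and EYA4, with 5 to 15 reads per Raji-4RH chidamide library. Epithelial genes gave 2 of 15, TMPRSS11E and the keratin KRT17. Cadherins, integrins and extracellular matrix genes gave 2 of 17, CDH17 and ITGB8. Muscle genes gave 1 of 9, the myosin MYH13, germ cell and testis genes 1 of 27, TDRD1, and liver and plasma protein genes 0 of 16. Counts this small describe the lists, and no list was tested.

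In Raji the balance of the lists depended on the scaling. Over all 4959 genes tested 1771 rose and 1445 fell, and 1370 and 1775 with quantile normalization. A list gene with few or no Raji DMSO reads enters the test through its chidamide reads and can hardly be called lower. Such genes were not counted apart, so the list counts do not support a direction. Of the ion channel genes 21 of 48 tested rose and 5 fell, but 12 rose and 13 fell with quantile normalization. The secreted factor list gave 35 rises and 8 falls among 74 (16 and 19 with quantile normalization). It was built from symbol starts such as FGF and PDGF, which also match receptor genes, and these were not counted apart. G protein-coupled receptors gave 16 and 4 among 36 (10 and 9). Developmental transcription factors gave 18 and 4 among 43 (9 and 11), and extracellular matrix and adhesion genes 24 and 6 among 57 (15 and 17). Solute carriers gave 44 and 28 among 111 (31 and 42), and epithelial genes 4 and 2 among 13 (3 and 5). More genes fell than rose with quantile normalization on each of these lists but that of the G protein-coupled receptors. The germ cell list (21 and 6 among 39, then 13 and 10), the muscle list (13 and 0 among 20, then 4 and 2) and the neuronal list held more rises than falls on both scales. Liver genes held more falls on both (4 rises and 10 falls among 22, then 1 and 12).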

How the data were processed

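RNA-seq libraries of Raji and Raji-4RH cells were analysed from the FPKM table that the authors deposited with gene lengths and Ensembl gene IDs. Per the labels, the submitters' processing notes name HISAT2 2.0.5, SAMtools 1.7, HTSeq 0.9.1 and DESeq2 1.22.2 on GRCh38 (hg38). Annotation release and strand setting are not given in the sources used here. Reads were recovered as FPKM times gene length times library total, which gave whole numbers for 100% of values above 0 (tolerance 0.01). The table has 63967 rows, of which the last 662 repeat the first 662. The rows after row 6228 were left out of the main results, since labels and values no longer share a row there. As the deposited unit is FPKM, a method for counts (limma voom on the recovered reads) was run only as an alternative.

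The genes and gene lists were chosen with earlier results of these data known. Raji chidamide was compared with Raji DMSO by limma 3.58.1 in R 4.3.3 on log2(FPKM + 0.1) with an intensity trend, for genes with at least 10 reads over the 4 libraries, with Benjamini-Hochberg adjustment over all 4959. A fold change on this scale understates that of low genes. A permutation of 2 against 2 libraries cannot go below a two-sided p of 0.333. The fit was tested on simulated data for this comparison. Of 200 changed genes among 4959, 186 were called, with 9 unchanged genes, but of the 10 changed genes under 10 mean reads 2 were called. The simulation gave every library the same spread and changed few genes. In the data the chi-square per degree of freedom was 5.35 in Raji DMSO and 1.73 in Raji chidamide, and many more genes were called. The simulated counts therefore do not carry over to these data. Named are the 25 genes with the highest mean FPKM in Raji-4RH chidamide, the 10 largest called in Raji, up to 6 per list, and the 3 with the fewest reads and 3 just outside the rule. Other genes were named after their values were seen: those switched on in both lines, the 12 without Raji reads, the 8 with at least 10 Raji DMSO reads, the 8 not called, those near another switched-on gene, and those described below the 25 highest. Coordinates are from GENCODE v29 and promoters from RefSeq on GRCh38.p14. Replicate counts within a group differed by more than sampling noise in all 4 groups (chi-square per degree of freedom 1.73 to 11.1, highest in Raji-4RH chidamide), so each library was counted as 1 sample. Some genes are not reported here. Limits on counts of 0 cover counting error only. Alternatives were other pseudocounts, filters, scalings, fits and sample sets.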

Additional observations from a re-analysis of the deposited data

Results flagged for a closer look

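The later rows of the table entered 1 alternative fit in Raji, and through it the counts, ranges and kept calls over the alternatives. Among them 401 rows had 0 reads in both Raji-4RH DMSO libraries and at least 5 in both chidamide libraries, and 4 rows the reverse. Their gene labels are not those of the values, so no gene is named. In Raji the same rows gave 193 and 11.

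NGFR had reads in both Raji-4RH chidamide libraries and none with DMSO, while in Raji both chidamide libraries (mean 0.0116 FPKM) lay below both DMSO libraries. The Raji values rest on 1 to 3 reads per library. DMSO replicate 2 and both chidamide libraries had 1 read each, so their FPKM differ by library total only. The separation in Raji is therefore no sign of a fall, and the difference between the lines was not tested.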

How the results depend on the processing

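Among the settings of the rule, the number of switched-on genes in Raji-4RH was 158 with at least 3 reads, 45 with 10, 22 with 20, 182 with at most 1 read allowed in each DMSO library, 92 with at least 0.3 reads per 1000000, and 0 with DMSO and chidamide exchanged. Leaving out 1 Raji-4RH library gave 117 to 160, the highest without DMSO replicate 1. In Raji 65 genes were switched on with at least 3 reads and 13 with 10, and both lines shared 25 and 4. Of the 95 genes, 16 were on in Raji with at least 3 reads there, and 10 to 15 when 1 Raji library was left out, with 15 without chidamide replicate 1.

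In the Raji test, 19 switched-on genes were called higher with quantile normalization and 14 of 15 tested with at least 40 reads, and 23 to 36 under the other settings with all 4 libraries. None was called lower under any setting. Leaving out 1 Raji library gave 24 to 27. There the group with 1 library was assumed to vary like the other. Over all genes, leaving out 1 library gave 1158 to 1738 higher (1158 without chidamide replicate 1 and 1177 without chidamide replicate 2) and 834 to 1409 lower (847 and 834). Voom on the reads of all rows not repeated gave 6126 and 3969 of 21006 rows, where more rows were tested. Of the 29 called genes, 18 kept their call under every alternative. The direction turned with quantile normalization for ZBTB16 (-0.10), SHB (-0.066), HNF4A (-0.52), GRAMD1B (-0.049), PTPRN (-0.18), FAM46A (-0.0048) and MDGA1 (-0.026), and for HNF4A without Raji DMSO replicate 2 (-0.069) and without Raji chidamide replicate 1 (-0.074; 0.28 without chidamide replicate 2). The cause was not tested.

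Whether the replicate numbers pair the samples is not given in the sources used here. The deviations of same-numbered DMSO and chidamide libraries had a correlation of -0.125 in Raji and 0.154 in Raji-4RH over 4014 genes. These values do not settle the pairing. With the replicate block, CCRL2 was called as well (adjusted p 0.0201 by limma), so that 30 switched-on genes were called higher, with 1739 higher and 1416 lower over all genes. With the numbers crossed, chosen after seeing the data, the counts were 30, 1847 and 1527. For 58 of the 95 genes the depth in Raji allowed no test.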
